A study of Homo sapiens with 12 samples.

Results

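*NUAK2*, *N4BP3*, *IRF1*, *ELF3*, *OVOL1*, *IER3*, *C10orf55* and *PLAU* are 8 of the 26364 gene symbols counted by RNA-seq in HCT116 cells, a human colon cancer cell line of epithelial origin. The first 7 were selected on the readout itself, as less studied genes that respond to tumor necrosis factor α (TNFα) in wildtype (WT) cells and respond less in a p65-deficient clone, and *PLAU* was added because it lies next to *C10orf55*. The TNFα responses of both cell lines and their difference are therefore given as a description without a test. All 8 genes passed the filter on low counts, and each had reads in all 12 libraries.

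RNA was sequenced from WT cells, the parental line, and from p65-deficient cells. Each line was kept without inhibitor or given 5 µM of CPT (camptothecin, a TOP1 inhibitor) or of ICRF193 (a TOP2 inhibitor) for 2 h. Each of these 6 treatments was sampled without TNFα (0 h) and with 1 h of TNFα at 20 ng/mL. The paper describes the 2 h of inhibitor as a pretreatment before the 1 h of TNFα. Libraries at 1 h may therefore have had more time with inhibitor than those at 0 h. In TNFα ratios with CPT or ICRF193, TNFα and such extra time cannot be told apart. Every one of the 12 conditions is a single library, without replicates. The sample labels of the p65-deficient libraries read shRNA p65, whereas the methods describe a single-cell clone made with CRISPR-Cas9, so these libraries stand for 1 clone, and what sets this clone apart beyond p65 cannot be told apart from the loss of p65. The methods name both untreated and vehicle-treated cells without saying which of them the libraries without inhibitor are.

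TNFα binds its receptor at the cell surface and activates the IκB kinases, which trigger degradation of the IκB proteins that hold NF-κB in the cytosol. NF-κB dimers containing p65, the product of *RELA*, then enter the nucleus and bind κB motifs at promoters and enhancers of immediate response genes. In intestinal epithelial cells NF-κB is known for inducing inflammatory mediators and for protecting cells from death. TOP1 removes the torsional stress that RNA polymerase II generates as it moves along a gene.

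Between 8101212 and 22051046 reads were counted per library. Of the p65-deficient libraries, 4 had at most 8755001 reads (ICRF193 at 0 h and all 3 at 1 h), while the other 8 libraries had at least 16300210, so that depth and TNFα cannot be told apart in the clone for 2 of its 3 treatments (none and CPT). *RELA* (hg19 chr11:65421067-65430443) had 694 to 908 normalized counts in the 6 WT libraries and 548 to 673 in the 6 p65-deficient libraries, without overlap, so its mRNA was lower but present in the clone. A normalized count is the number of reads divided by the DESeq2 size factor of the library. Of the 6 epithelial markers, *EPCAM*, *CDH1*, *KRT8*, *KRT18* and *KRT19* had at least 780 reads in every library, while *VIL1* had 0 to 4. Summed over 3 markers each, leukocyte genes had 1 to 21 reads, endothelial genes 5 to 32 and fibroblast genes 60 to 229. Most of these came from *CD14* (0 to 21), *VWF* (4 to 26) and *COL1A1* (57 to 227), while *CD3E* had 0 reads and *PTPRC*, *PECAM1*, *CDH5*, *COL1A2* and *PDGFRB* at most 4. In RNA from whole cultures, fewer responding cells and less RNA per cell cannot be told apart.

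Promoter sequences were taken from RefSeq (GRCh38.p14) to show which of the genes carry a κB motif close to their start. They were found for 5 of the 8 genes, with 6 windows of 300 bases, since *PLAU* has 2. The upstream 250 bases of *ELF3*, *IRF1* and *NUAK2* are shown, the first pair because they hold a match to the κB consensus and *NUAK2* because it had the largest TNFα ratio and none. They lie at chr1:202010337-202010586 on the plus strand for *ELF3*, at chr5:132490774-132491023 on the minus strand for *IRF1* and at chr1:205321746-205321995 on the minus strand for *NUAK2*. Each is written 5′ to 3′ along the strand of its gene up to the base before the start, and capitals mark the match to the κB consensus.
ELF3: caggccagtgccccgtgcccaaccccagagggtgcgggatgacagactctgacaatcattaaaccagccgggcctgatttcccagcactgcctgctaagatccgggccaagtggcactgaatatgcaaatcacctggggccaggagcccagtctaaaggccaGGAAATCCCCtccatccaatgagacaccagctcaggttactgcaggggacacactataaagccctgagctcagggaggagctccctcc
IRF1: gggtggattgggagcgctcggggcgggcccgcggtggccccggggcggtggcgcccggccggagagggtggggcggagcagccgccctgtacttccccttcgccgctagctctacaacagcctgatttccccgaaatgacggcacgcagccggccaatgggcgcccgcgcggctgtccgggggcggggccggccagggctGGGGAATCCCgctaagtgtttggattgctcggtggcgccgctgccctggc
NUAK2: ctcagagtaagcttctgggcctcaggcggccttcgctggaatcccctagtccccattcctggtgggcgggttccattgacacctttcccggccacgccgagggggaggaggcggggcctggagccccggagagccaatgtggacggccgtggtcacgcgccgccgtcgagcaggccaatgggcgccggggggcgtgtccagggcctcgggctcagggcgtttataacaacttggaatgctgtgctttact

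The *ELF3* match lies 88 to 79 bases before the start and reads GGGGATTTCC on the opposite strand, where it also fits a narrower motif of GGG, any 2 bases and TTTCC. The *IRF1* match lies 50 to 41 bases before the start, and GGGGAATCCC fits the consensus on both strands. Searched on both strands, the κB consensus was present in 11.3% and the narrower motif, which overlaps with it, in 1.91% of 34796 RefSeq promoters of the same length. *NUAK2*, *N4BP3* and both windows of *PLAU* held no match, which says only that these letters are not in this window. TATAAA, present in 11.6% of promoters, was found 34 to 29 bases before the *ELF3* start, and on the opposite strand 31 to 26 bases before that of *NUAK2*. The match is a description of the sequence, and binding was not measured in these libraries.

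Levels between genes were compared per length, as reads per kilobase of countable exon, scaled to the counted reads of the library (RPKM). The median over the 12 libraries was 384 for *IER3*, 107 for *PLAU*, 50.5 for *ELF3*, 8.92 for *IRF1*, 8.20 for *OVOL1*, 2.18 for *N4BP3*, 1.75 for *C10orf55* and 1.51 for *NUAK2*. The ranges of neighbours in this order overlapped except for *IER3* (237 to 800) above *PLAU* (65.6 to 145). *PLAU* overlapped with *ELF3* (28.0 to 72.2), *ELF3* with *IRF1* (6.51 to 32.3), *IRF1* with *OVOL1* (4.62 to 13.7), *OVOL1* with *N4BP3* (1.32 to 5.42), and *N4BP3* with both *C10orf55* (0.737 to 3.39) and *NUAK2*. *NUAK2*, the lowest by its median, had the widest range relative to its lowest value, from 0.816 to 23.9, and reached into those of *IRF1* and *OVOL1*.

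Among the transcription factors, *IRF1* (hg19 chr5:131817301-131826465), a regulator of interferon response genes, had 416 normalized counts at 0 h and 1674 at 1 h in WT cells without inhibitor. With CPT it had 329 and 521, and with ICRF193 443 and 1625. In the p65-deficient clone the corresponding values were 439 and 459 without inhibitor, 432 and 458 with CPT, and 432 and 539 with ICRF193. In WT cells the TNFα log2 ratio was thus 2.01 (95% interval 1.88 to 2.14) without inhibitor, 0.66 (0.48 to 0.84) with CPT and 1.88 (1.74 to 2.02) with ICRF193, against 0.06 (-0.15 to 0.27), 0.08 (-0.13 to 0.30) and 0.32 (0.08 to 0.55) in the clone. These exact Clopper-Pearson intervals compare 2 libraries, cover counting error only and treat reads as independent molecules. The WT libraries at 1 h without CPT stood above all others, and the WT library with CPT at 0 h was the lowest.

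*ELF3* (hg19 chr1:201979690-201986315), an ETS factor of epithelial cells, had 1399 normalized counts at 0 h and 3420 at 1 h in WT cells without inhibitor, 1291 and 1594 with CPT, and 1551 and 3351 with ICRF193. The clone held 2473 and 2469 without inhibitor, 2252 and 2027 with CPT, and 2659 and 2982 with ICRF193. Every p65-deficient library was above all 3 WT libraries at 0 h and below both WT libraries at 1 h without CPT. The TNFα log2 ratio was 1.29 (1.21 to 1.36), 0.30 (0.21 to 0.40) and 1.11 (1.03 to 1.19) in WT cells, in the order none, CPT and ICRF193. In the clone it was -0.00 (-0.09 to 0.09), -0.15 (-0.25 to -0.05) and 0.17 (0.07 to 0.26).

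*OVOL1* (hg19 chr11:65554505-65564690), a zinc finger factor of epithelial differentiation, had 375 normalized counts at 0 h and 465 at 1 h in WT cells without inhibitor, 331 and 422 with CPT, and 341 and 484 with ICRF193. In the clone it had 253 and 192 without inhibitor and 246 and 220 with ICRF193, but 597 and 489 with CPT. The 4 p65-deficient libraries without CPT lay below all 6 WT libraries, and the 2 with CPT lay above all of them. Its TNFα log2 ratio in WT cells was 0.31 (0.14 to 0.48), 0.35 (0.16 to 0.54) with CPT and 0.51 (0.32 to 0.69) with ICRF193, the smallest of the 8 genes without inhibitor and with ICRF193. In the clone the ratios were below 0, with -0.40 (-0.72 to -0.09), -0.29 (-0.49 to -0.09) and -0.17 (-0.51 to 0.17). The antisense gene *OVOL1-AS1* lies within the span of *OVOL1* without sharing an exon, and the counting did not use strand. *OVOL1* was thus a weak TNFα responder here, and its WT ratio with CPT differed from that without inhibitor by 0.04 (counting interval -0.21 to 0.28).

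*NUAK2* (hg19 chr1:205271191-205290919) encodes a protein kinase of the AMPK-related family. It had 148 normalized counts (226 reads) at 0 h and 1200 (1478 reads) at 1 h in WT cells without inhibitor, 118 and 1029 with ICRF193, but 39.9 (48 reads) and 97.1 (133 reads) with CPT. In the clone the 6 libraries had 43.7 to 81.2 normalized counts from 25 to 104 reads, with 68.1 and 54.4 without inhibitor, 81.2 and 43.7 with CPT, and 66.3 and 58.4 with ICRF193. The 2 WT libraries at 1 h without CPT were far above the rest, and the lowest of all was the WT library with CPT at 0 h. The TNFα log2 ratio in WT cells was 3.02 (2.81 to 3.22), 1.28 (0.80 to 1.79) with CPT and 3.12 (2.86 to 3.39) with ICRF193. *NUAK2* was the 1 gene of the 8 above 2-fold with CPT, but its interval included 2-fold, and *C10orf55* (1.996-fold) was just below. The *NUAK2* level with CPT at 1 h (97.1) was below that without inhibitor at 0 h (148). In the clone the TNFα log2 ratios were -0.32 (-0.95 to 0.27), -0.89 (-1.59 to -0.25) and -0.18 (-0.86 to 0.49).

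*N4BP3* (hg19 chr5:177540556-177553107), named for binding the ubiquitin ligase NEDD4, had 194 and 473 normalized counts at 0 h and 1 h in WT cells without inhibitor, 112 and 174 with CPT, and 186 and 405 with ICRF193. The clone stayed between 166 and 208 in all 6 libraries. In WT cells the TNFα ratio, as log2, was 1.28 (1.08 to 1.49), 0.63 (0.32 to 0.95) and 1.12 (0.89 to 1.36), and it was -0.32 (-0.66 to 0.02), -0.13 (-0.48 to 0.21) and -0.15 (-0.54 to 0.24) in the clone. With CPT the WT level at 1 h was within the range of the clone.

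*IER3* (hg19 chr6:30710976-30712327), an immediate early response gene whose product affects cell survival, was the most abundant of the 8 genes. The files also list copies on alternative haplotypes of chromosome 6, whose reads may be split or lost, so its level is uncertain. In WT cells it had 7045 and 14280 normalized counts at 0 h and 1 h without inhibitor, 4180 and 5500 with CPT, and 7324 and 14500 with ICRF193. The clone held 6286 and 6969 without inhibitor, 5787 and 5542 with CPT, and 6439 and 7566 with ICRF193. TNFα log2 ratios in WT cells were 1.02 (0.98 to 1.05), 0.40 (0.34 to 0.45) and 0.98 (0.95 to 1.02). *IER3* kept a small positive ratio in the clone without inhibitor (0.15, 0.10 to 0.20) and with ICRF193 (0.23, 0.17 to 0.29), while that with CPT was -0.06 (-0.12 to -0.00).

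*PLAU* (hg19 chr10:75670862-75677258) encodes the urokinase-type plasminogen activator, a secreted protease that converts plasminogen to plasmin. It had 2076 and 4056 normalized counts at 0 h and 1 h in WT cells without inhibitor, 2092 and 2185 with CPT, and 1814 and 3982 with ICRF193. The clone held 3294 and 3180 without inhibitor, 2902 and 2883 with CPT, and 2876 and 2950 with ICRF193. As for *ELF3*, the 6 p65-deficient libraries lay between the WT libraries at 0 h and the WT libraries at 1 h without CPT. For TNFα in WT cells, the log2 ratio was 0.97 (0.90 to 1.03) without inhibitor, 1.14 (1.06 to 1.21) with ICRF193 and 0.06 (-0.01 to 0.14) with CPT, and *PLAU* was the 1 gene whose interval with CPT included 0. In the clone the ratios were -0.05, -0.01 and 0.04, each with an interval that included 0.

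*C10orf55* (hg19 chr10:75669727-75682535), a gene of uncharacterised function, runs on the opposite strand across *PLAU*. It had 20 to 106 reads per library. In normalized counts it had 21.7 and 86.1 at 0 h and 1 h in WT cells without inhibitor, 18.3 and 36.5 with CPT, and 21.2 and 70.6 with ICRF193. In the clone all 6 libraries had 34.0 to 53.8. WT cells had a TNFα log2 ratio of 1.99 (1.41 to 2.60), 1.00 (0.25 to 1.79) with CPT and 1.74 (1.07 to 2.45) with ICRF193, and in the clone it was between -0.18 and 0.00 with intervals that included 0.

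The exons of both genes overlap by 770 bases, which leaves 1920 countable bases for *PLAU* and 1743 for *C10orf55*. The libraries were made with a strand-specific kit, but the counting command in the file headers sets no strand option and leaves out reads that touch both genes. Reads of *C10orf55* therefore cannot be told apart from reads of *PLAU* transcripts that extend beyond its listed exons. *C10orf55* took 0.866% to 1.16% of the reads of both genes in the 3 WT libraries at 0 h and 1.64% to 2.08% at 1 h, without overlap. In the clone the share was 1.16%, 1.82% and 1.62% at 0 h and 1.06%, 1.67% and 1.58% at 1 h, in the order none, CPT and ICRF193. Without inhibitor, the exact intervals of the WT share at 0 h (0.712% to 1.45%) and 1 h (1.70% to 2.51%) did not overlap, whereas those with CPT and with ICRF193 did.

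**Figure D1:**
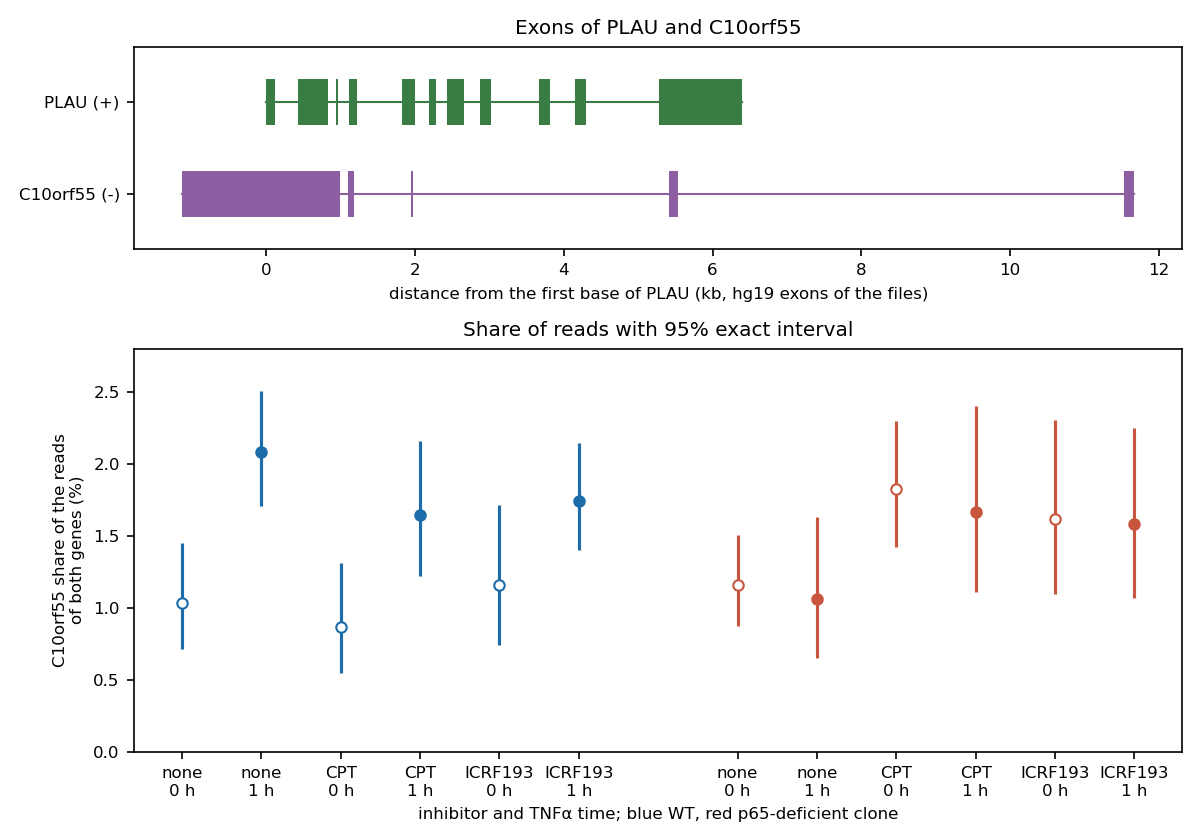
The upper panel shows exons of PLAU and C10orf55 by distance in kb from the first base of PLAU, with boxes for exons and the strand in brackets. The lower panel shows the C10orf55 share of the reads of both genes in percent with the 95% exact interval in each of the 12 libraries (open points 0 h, filled points 1 h TNFα), where the WT share is 0.866% to 1.16% at 0 h and 1.64% to 2.08% at 1 h.

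**Figure D2:**
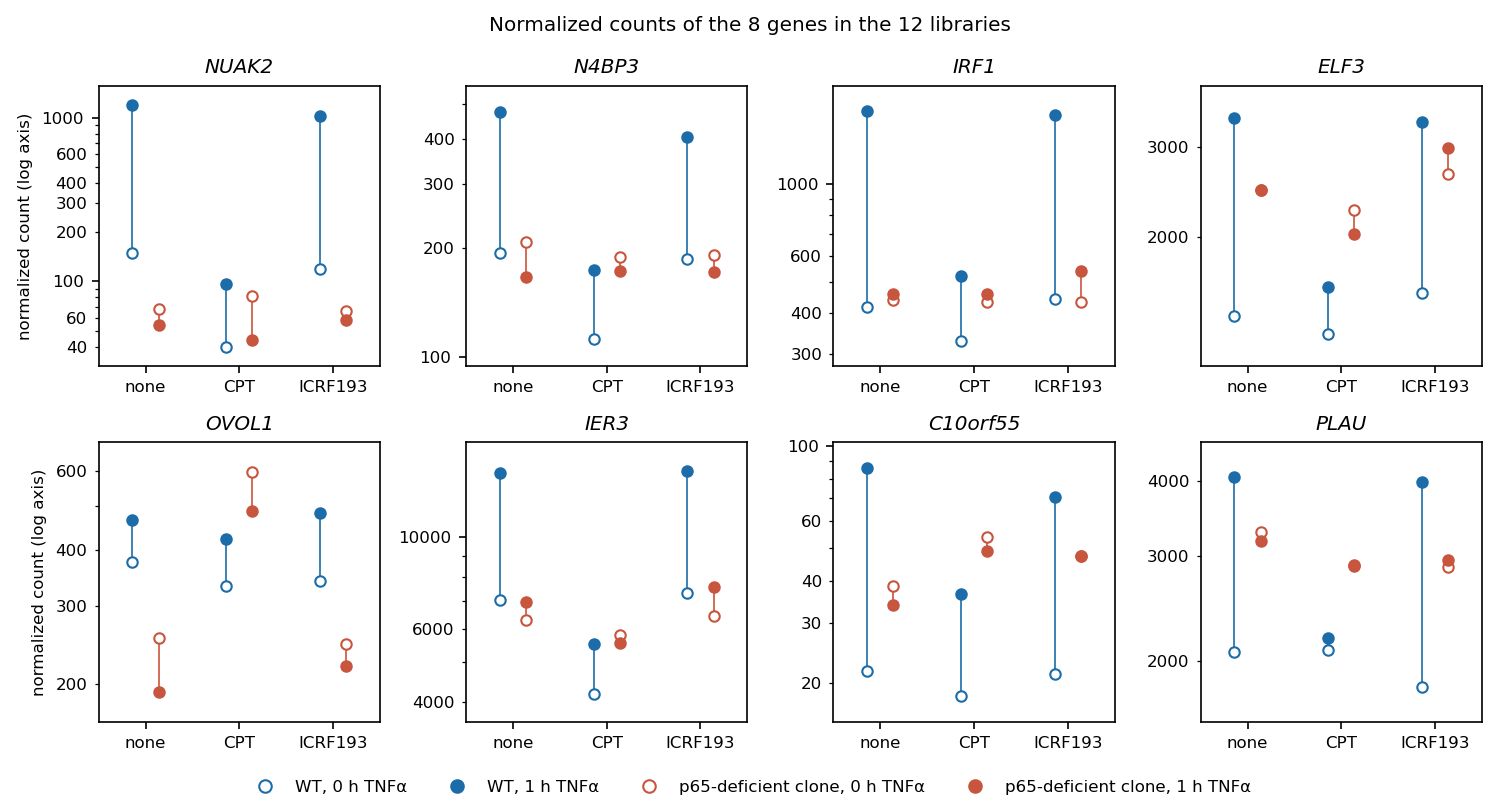
Normalized counts of the 8 genes on log axes that differ between panels, for each inhibitor (none, CPT, ICRF193), with open points for 0 h and filled points for 1 h TNFα, joined by a line, in WT cells (blue) and the p65-deficient clone (red). The filled blue points without CPT stand highest for 7 genes, and OVOL1 is the exception, with its highest values in the clone with CPT (597 and 489).

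Counted over the genes, the TNFα ratio in WT cells without inhibitor exceeded 2-fold for 6 of the 8 (median log2 ratio 1.29), against 0.392% of 13012 genes with at least 20 reads in 1 of both libraries. The interval lay above 0 for all 8, against 10.3% of those genes. Both shares restate the choice of the genes. *PLAU* and *OVOL1* were the genes below 2-fold. With ICRF193, 6 of 8 exceeded 2-fold (median 1.13, background 0.51%), with *IER3* just below and *PLAU* above that limit, and the interval was above 0 for all 8 (background 8.49%). With CPT, 1 of 8 exceeded 2-fold (median 0.51, background 0.46%) and 7 of 8 had an interval above 0 (background 12.1%). The median over all genes was within 0.02 of 0 in each of these comparisons.

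In the clone, 0 of 8 exceeded 2-fold without inhibitor (median -0.12, background 0.241%), with CPT (median -0.14, background 0.0912%) or with ICRF193 (median 0.02, background 0.341%). With ICRF193, *IRF1*, *ELF3* and *IER3* had intervals above 0 in the clone. Without inhibitor at 1 h, 6 of 8 were more than 2-fold lower in the clone than in WT cells (background 2.16%), from a log2 ratio of -4.46 (-5.02 to -3.96) for *NUAK2* to -1.03 (-1.08 to -0.99) for *IER3*. *ELF3*, with -0.47 (-0.56 to -0.38), and *PLAU*, with -0.35 (-0.43 to -0.27), differed least, and both had a higher level in the clone at 0 h. The genes were chosen for a lower TNFα response in the clone, so these counts largely restate that choice and nothing is read from them.

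**Figure D3:**
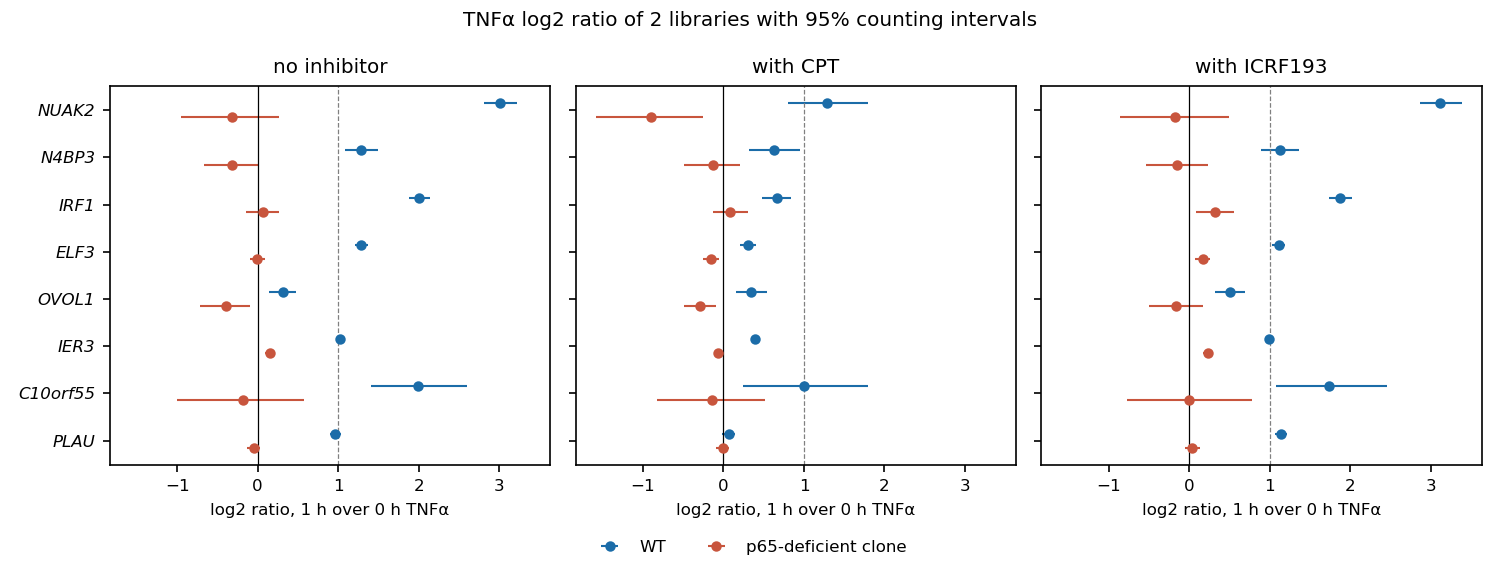
TNFα log2 ratio of 2 libraries (1 h over 0 h) for the 8 genes without inhibitor, with CPT and with ICRF193, in WT cells (blue) and the p65-deficient clone (red), with 95% counting intervals, a solid line at 0 and a dashed line at 2-fold. With CPT the WT points lie between 0.06 and 1.28, and without inhibitor between 0.31 and 3.02.

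The study also asked how the inhibitors change induced levels. At 1 h TNFα in WT cells, CPT was accompanied by more than 2-fold lower counts for 6 of the 8 genes (median log2 ratio -1.31), against 5.11% of 13334 genes. The CPT log2 ratio at 1 h was -3.63 (-3.90 to -3.37) for *NUAK2*, -1.68 (-1.81 to -1.56) for *IRF1* and -0.14 (-0.31 to 0.03) for *OVOL1*. *PLAU*, with -0.89 (-0.96 to -0.83), was the other gene short of 2-fold. These ratios share the WT library at 1 h without inhibitor with the choice of the genes. In the clone at 1 h none of the 8 was more than 2-fold lower with CPT (background 5.67%). ICRF193 gave 0 of 8 at 1 h in WT cells (background 0.274%), with ratios from -0.28 to 0.06.

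For 7 of the 8 genes, the TNFα log2 ratio in WT cells was lower with CPT than without inhibitor, with a difference of -1.73 (counting interval -2.25 to -1.22) for *NUAK2*, the largest, and -0.62 (-0.69 to -0.56) for *IER3*, the smallest of the 7. *OVOL1* was the exception given above (0.04). The WT ratio without inhibitor is among the values that chose the genes, which favours a lower ratio in any other treatment. Nothing is therefore read from the count of 7. For ICRF193 the same difference was 0.10 (-0.22 to 0.43) for *NUAK2* and -0.03 (-0.09 to 0.02) for *IER3*. Of the 8 genes, *ELF3* (-0.18, -0.29 to -0.07) and *PLAU* (0.17, 0.07 to 0.27) had an interval for ICRF193 that left out 0, in opposite directions.

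Without TNFα, the CPT ratios of several of these genes differed between the cell lines by more than counting error. In WT cells the CPT log2 ratio at 0 h was -1.90 (-2.38 to -1.44) for *NUAK2*, the 1 of 8 genes more than 2-fold lower (background 5.45%). It was -0.79 (-1.10 to -0.49) for *N4BP3* and -0.75 (-0.80 to -0.70) for *IER3*. In the clone 0 of 8 were more than 2-fold lower (background 5.31%), and the ratio was 0.25 (-0.16 to 0.67) for *NUAK2*, -0.13 (-0.38 to 0.12) for *N4BP3* and -0.12 (-0.16 to -0.07) for *IER3*. *OVOL1* was -0.18 (-0.37 to 0.01) in WT cells and 1.24 (1.05 to 1.42) in the clone. With CPT at 0 h, all 8 genes were higher in the clone than in WT cells with an interval above 0 (log2 ratio 0.39 to 1.56), against 25.0% of 13391 genes. At 0 h without CPT the genes went both ways, with log2 ratios of -1.12 to 0.83 without inhibitor and -0.84 to 1.16 with ICRF193. The libraries at 0 h are denominators of the TNFα responses that chose the genes, and a higher level in the clone lowers its response. Nothing is therefore read from the count of all 8 with CPT. Each comparison holds 1 library on each side.

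The libraries at 0 h allow a test that leaves the TNFα libraries out, although they remain the baseline of the response that chose the genes. The 6 libraries were fitted with cell line and inhibitor as additive terms in edgeR (quasi-likelihood test, Benjamini-Hochberg adjustment over 14326 genes, adjusted p under 0.05). The fit takes the difference of an inhibitor effect between the cell lines as error, with 2 residual degrees of freedom. Its p-values measure the spread between these single libraries, where edgeR draws the spread of each gene toward that of all genes. Of all genes, 3.68% were raised and 4.55% lowered in the clone.

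The clone and WT cells at 0 h are the denominators of the TNFα responses that chose the genes, and a higher 0 h level in the clone lowers its response. Their difference is therefore a description, given as log2 fold change and SE without a p-value. At the threshold of the fit, 3 of the 8 genes were higher in the clone and 0 lower, and nothing is read from this count. *ELF3* was 1.75-fold higher in the clone (log2 fold change 0.80, SE 0.059), with 2252 to 2659 normalized counts against 1291 to 1551 in WT cells. *PLAU* was 1.52-fold higher (0.60, SE 0.064), with 2876 to 3294 against 1814 to 2092. *C10orf55* was 2.25-fold higher (1.17, SE 0.24), with 38.6 to 53.8 normalized counts against 18.3 to 21.7. The groups did not overlap for any of the 3 genes. The other 5 genes had log2 fold changes of -0.39 (SE 0.31) for *NUAK2*, 0.29 (SE 0.15) for *N4BP3*, 0.15 (SE 0.10) for *IRF1*, -0.03 (SE 0.22) for *OVOL1* and 0.04 (SE 0.10) for *IER3*. The values of *NUAK2* and *OVOL1* rest on single libraries: without either CPT library they were -1.02 and -0.52, and without the WT library that received no inhibitor 0.10 and 0.24. *RELA*, which was not chosen by its response, was lower in the clone (-0.41, SE 0.11, adjusted p = 0.049, edgeR). Its single log2 ratios were -0.73 (-0.86 to -0.60) without inhibitor and -0.47 (-0.65 to -0.30) with ICRF193. With CPT the ratio was -0.044 (-0.183 to 0.095).

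For CPT at 0 h, 8.85% of genes were raised and 16.4% lowered, and of the 8 genes *IER3* fell (log2 fold change -0.43, SE 0.13, adjusted p = 0.03, edgeR). This call was lost in 4 of 12 alternatives. They left out the WT library without inhibitor (-0.29) or that with CPT (-0.13), dropped the cell line term, or used DESeq2 (adjusted p = 0.33). The single ratios of -0.75 in WT cells and -0.12 in the clone differ by 0.634 (counting interval 0.57 to 0.70). *N4BP3* (-0.44, SE 0.18, adjusted p = 0.094), *NUAK2* (-0.76, SE 0.38, adjusted p = 0.16) and *OVOL1* (0.56, SE 0.26, adjusted p = 0.14) did not pass, and the single ratios of *NUAK2* and *OVOL1* had opposite signs in the cell lines. *NUAK2* passed in 6 of 12 alternatives and *OVOL1* in 5, and these counts include fits with 1 library left for a treatment. Without the WT library with CPT, *NUAK2* was 0.17 and *OVOL1* 1.20, and without the CPT library of the clone they were -1.87 and -0.17. With 1 CPT library left, the spread between CPT libraries does not enter the fit, so only the effect sizes are given. For ICRF193 at 0 h, 0 of the 8 genes passed, against 3 of all genes (0.0209%). With an unadjusted p under 0.05, the fit held 268 of all genes and 1 of the 8, *PLAU* (-0.19, SE 0.08, unadjusted p = 0.0317, adjusted p = 1.0). DESeq2 called 0 of the 8 and 4 of all genes for ICRF193.

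**Figure D4:**
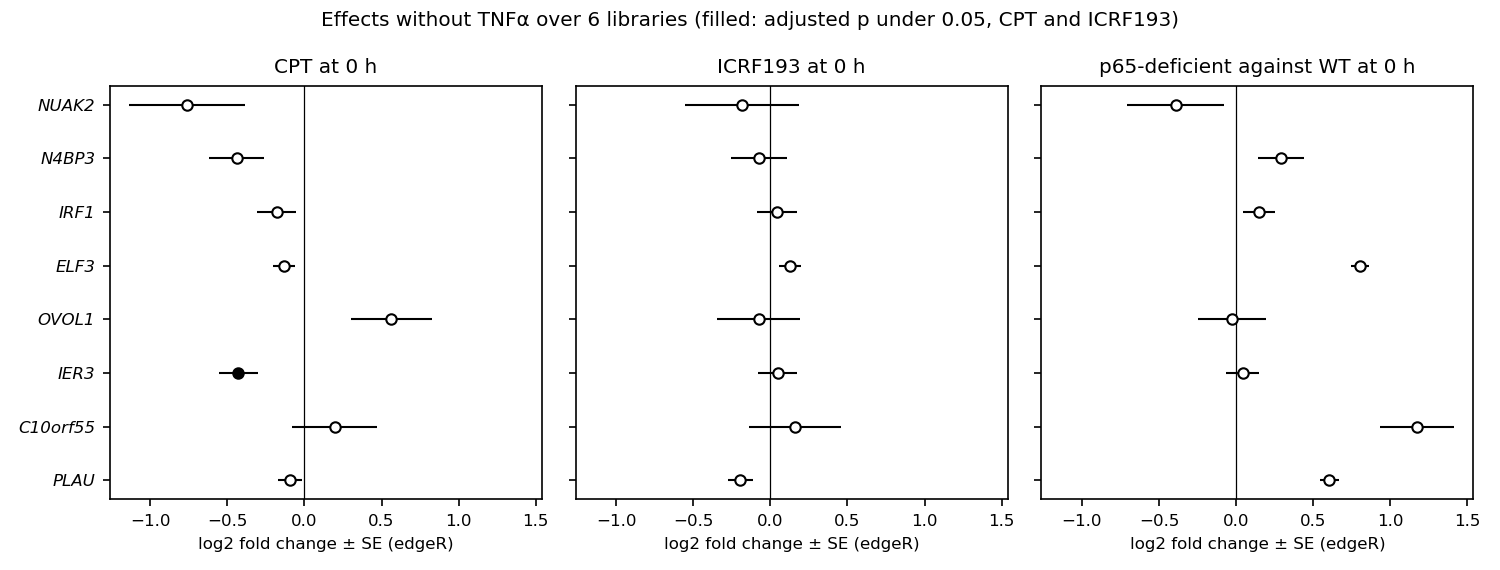
edgeR log2 fold change with its SE over the 6 libraries at 0 h for CPT, ICRF193 and the p65-deficient clone against WT cells, with filled points for an adjusted p under 0.05 with CPT and ICRF193, and open points without a test for the clone. IER3 (-0.43) is lowered with CPT, and the values of ELF3 (0.80), C10orf55 (1.17) and PLAU (0.60) in the clone lie farthest above 0.

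Gene lists around the 8 genes gave the setting. Of 28 well-known NF-κB targets of TNFα with enough reads, 15 exceeded 2-fold in WT cells without inhibitor (median log2 ratio 1.13), 5 of 26 did with CPT (median 0.17) and 15 of 27 with ICRF193 (median 1.02). In the clone 0 of 21, 0 of 25 and 0 of 21 did, with medians of -0.01, -0.07 and 0.08. At 0 h, 3 of 27 targets in the fit were raised and 5 lowered with CPT, shares near those of all genes (8.85% and 16.4%), and their median was 0.02, as over all genes. The calls with the largest values were *NFKBIZ* (2.20), an atypical IκB protein, the chemokine *CXCL1* (1.98), the NF-κB subunit *REL* (-1.15) and the adaptor *TRAF2* (-1.02), all log2 fold changes. In the clone 0 were raised and 3 lowered at 0 h, beside 3.68% and 4.55% of all genes, namely *TRAF1* (-4.38), *RELB* (-0.76) and *REL* (-0.48).

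Relatives of the 8 genes were listed by family. With TNFα in WT cells without inhibitor, 0.392% of all genes with enough reads exceeded 2-fold, so nothing is read from their absence in these short lists. None of 15 AMPK-related kinases, 6 IRF genes, 8 ETS factors or 4 OVOL and N4BP relatives exceeded 2-fold there. Nor did any of 3 immediate early response relatives or 8 genes of the plasminogen activator system. Their median log2 fold change with CPT at 0 h was -0.24 for the kinases, -0.01 for the IRF genes, -0.43 for the ETS factors, -0.33 for the OVOL and N4BP relatives, 0.41 for the immediate early response relatives and 0.13 for the plasminogen activator system, beside 0.02 over all genes. The counts with CPT that follow stand beside 8.85% of all genes raised and 16.4% lowered, and those in the clone beside 3.68% and 4.55%, and nothing particular to a list is read from them. Among the kinases related to *NUAK2*, 6 of 15 fell with CPT at 0 h and 0 rose, among them *SNRK* (-1.46), *SIK2* (-0.65), *MARK3* (-0.57) and *NUAK1* (-0.46), and *PRKAA2* (-4.03) and *BRSK1* (-0.55) were lower in the clone. Of the 6 IRF genes, *IRF7* (1.39) and *IRF3* (0.33) rose with CPT. Of the 8 ETS factors, 5 fell with CPT, led by *ELF2* (-2.04) and *ELF1* (-1.01), and *EHF*, like *ELF3* an epithelial ETS factor, was higher in the clone (1.24, SE 0.19, adjusted p = 0.0025, edgeR). Of 5 OVOL and N4BP relatives, *OVOL3* (1.54) rose and 3 fell with CPT, among them *OVOL2* (-1.41). *IER2* (1.07) rose with CPT and *IER5L* (0.83) was higher in the clone, out of 3 relatives of *IER3*. Of 9 genes of the plasminogen activator system, *VTN* (2.64) rose with CPT, and *LRP1* (-0.90) and *PLAUR* (-0.36), the urokinase receptor, fell. Apart from the medians, these values are log2 fold changes at 0 h that passed the edgeR test.

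Across the 12 libraries the profiles of the 8 genes fell into groups. Pearson r of log2(normalized count + 1) was 0.92 to 0.944 between each pair of *NUAK2*, *N4BP3*, *IRF1* and *IER3*, and 0.88 to 0.926 between *ELF3*, *PLAU* and *C10orf55*, while *OVOL1* had at most 0.452 with any of the others. The points share libraries and treatments, and the genes were chosen by their TNFα responses in these libraries, so r is a description. Likeness to other TNFα targets follows in part from that choice, and r does not compare the size of responses. Outside the 8, the genes most like their mean profile were *TNFAIP2* (0.965), *SDC4* (0.963), *CD83* (0.959), *NFKBIA* (0.912) and *BIRC3* (0.892). The gene most like *NUAK2* was *PLAUR* (0.976), that most like *IRF1* was *CD83* (0.977), and that most like *IER3* was *EFNA1* (0.96). *N4BP3* was closest to *SDC4* (0.952), *OVOL1* to *UBE2Z* (0.949), *PLAU* to *IKBKE* (0.892), *ELF3* to *NAB1* (0.886) and *C10orf55* to *SQSTM1* (0.823).

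Genes next to the 8 were followed as well. They were 14 neighbours with at least 20 reads in 1 of the 12 libraries, 523 to 229287 bases away on hg19. The 1 above 2-fold with TNFα in WT cells without inhibitor, *GPR37L1* beside *ELF3*, had 4 and 11 reads there (log2 ratio 1.77, 0.01 to 3.87), too few for the limit used for the other ratios. *TMCC2*, 28720 bases from *NUAK2*, had a ratio of 0.47 (0.09 to 0.85), and 0.37 (-0.03 to 0.785) with ICRF193. *SNX32*, 36720 bases from *OVOL1*, went the other way, with -1.19 (-2.33 to -0.16) from 31 and 11 reads. An interval above 0 was found for 3 of the 14 neighbours, beside 10.3% of all genes with enough reads, and nothing is read from this count. *FLOT1*, which lies 523 bases from *IER3*, had a ratio of 0.02 (-0.09 to 0.13) without inhibitor. *RMND5B*, 4855 bases from *N4BP3*, had 0.23 (0.05 to 0.42) without inhibitor and -0.06 (-0.26 to 0.14) with ICRF193. *CAMK2G* (-0.02) and *VCL* (-0.17) flank the pair of *PLAU* and *C10orf55*. *OVOL1* lies 124062 bases from *RELA*, the gene targeted in the clone.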

How the data were processed

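Gene counts of 12 HCT116 libraries were used. The authors trimmed the reads with Trimmomatic, and the deposited values are raw counts of reads per gene on hg19 exons from featureCounts 1.5.0, whose command lines in the file headers hold no strand, overlap or multimapping option. The submitters' processing notes also name STAR and deepTools, and their versions are not given in the sources used here. The file length of *IER3* sums copies on alternative haplotypes, so its exons on chromosome 6 were used.

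The 8 genes and all gene lists were chosen with earlier results of these data known. Named genes beyond the 8 were the nearest counted gene on each side, the genes most alike in profile (mean normalized count of at least 50) and up to 4 genes of each list past the threshold. Ratios of 2 libraries used DESeq2 1.42.0 size factors, no pseudocount and genes with at least 20 reads in 1 of both libraries, with Clopper-Pearson 95% intervals. Tests used edgeR 4.0.16 (TMM, filterByExpr) at 0 h, after the scripts were tested on simulated data. The simulated counts held no difference of an inhibitor effect between the cell lines, so they do not check the fit where such differences exist. κB matches were searched on both strands from 250 bases before to 50 after the start. Alternatives were other scalings, pseudocounts of 0.5 and 1, filters, DESeq2, other terms and leaving out each library. Scripts ran in Python 3.11.15 (scipy 1.17.1, pandas 2.3.3, matplotlib 3.10.9, numpy 2.4.6) and R 4.3.3. Depth was 8101212 to 22051046 counted reads per library.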

Additional observations from a re-analysis of the deposited data

Results flagged for a closer look

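For 4 genes, every library pair of WT cells moved one way and every pair of the clone the other way, and these differences were not tested. For *OVOL1* with CPT, the log2 ratios were -0.18 and -0.14 in WT cells (0 h and 1 h TNFα) and 1.24 and 1.35 in the clone, so the mean was 1.452 higher in the clone. For *C10orf55*, which had 20 to 106 reads per library, the ratios with CPT were -0.24 and -1.24 in WT cells and 0.48 and 0.53 in the clone (difference 1.244), and those with ICRF193 were -0.03 and -0.28 against 0.29 and 0.48 (difference 0.545). The intervals for *C10orf55* with ICRF193 all included 0. With CPT, only that of WT cells at 1 h (-1.75 to -0.74) left out 0. For *OVOL1* with CPT, both WT intervals included 0 (-0.37 to 0.01 and -0.31 to 0.03).

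The opposite TNFα ratios of *NUAK2* (difference -2.94), *N4BP3* (-1.212) and *OVOL1* (-0.672) come from genes chosen for a lower TNFα response in the clone. That choice fixes the sign of the difference but not that the ratios themselves have opposite signs. Many of the ratios below 0 in the clone were within counting error. Every interval of *N4BP3* there included 0, and that of *NUAK2* left out 0 only with CPT (-1.59 to -0.25). For *OVOL1* it left out 0 without inhibitor (-0.72 to -0.09) and with CPT (-0.49 to -0.09).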

How the results depend on the processing

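Calls at 0 h without TNFα rest on 6 single libraries, and their number depended on the fit, while the 8 genes' counts above or below 2-fold were the same under every scaling and pseudocount tried. The background shares depend on the filter: with at least 20 reads in 1 of the 12 libraries in place of 1 of both, 108 genes against 51 exceeded 2-fold with TNFα in WT cells without inhibitor, 98 against 61 with CPT and 172 against 65 with ICRF193, and in the clone 184 against 31, 88 against 12 and 298 against 41. With ICRF193 at 1 h in WT cells, 125 against 35 were more than 2-fold lower. For CPT, 3611 genes passed in the additive edgeR fit, 2206 with DESeq2 and 2117 to 6386 when 1 library was left out. Of the 8 genes 1 passed, against 4 with no filter on low counts, 0 with DESeq2 and 1 to 4 when 1 library was left out (4 without the CPT library of the clone). For ICRF193, 3 genes passed, 29 with no filter and 6 to 169 when 1 library was left out, with 0 to 1 of the 8 (1, without either CPT library). For the clone, 1179 genes passed, 1970 with no filter, 693 with DESeq2, 679 to 3777 when 1 library was left out and 3831 without the CPT libraries. Of the 8 genes 3 passed, 3 to 6 when 1 library was left out (6 without either CPT library) and 6 without the CPT libraries. With DESeq2, and in edgeR without the inhibitor term, 2 of the 8 passed for the clone, *ELF3* and *PLAU*, and *C10orf55* no longer did. The causes were not tested. Leaving out 1 library leaves a treatment with 1 library and no spread of its own, so these counts show only the dependence on the fit. *IER3* in the clone changed sign, from 0.04 to -0.164 without either CPT library and -0.163 without both (highest value when 1 library was left out 0.15).

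The labels give each condition 1 library, so no replicate number pairs libraries, and the cell line (or inhibitor) term takes the place of a block. Without that block 1795 genes and 0 of the 8 passed for CPT, 0 genes for ICRF193 and 135 for the clone. With 4 matched pairs, TNFα libraries included, as the block, 6976 genes and 6 of the 8 passed for CPT, and 304 and 1 for ICRF193. Depth limits *C10orf55* and *NUAK2* most, with as few as 20 and 25 reads.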
